A study of Mus musculus with 4 samples.

Results

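The genes described here are 6 cell adhesion genes that border wide stretches of the mouse genome without protein-coding genes, in which peaks of the long noncoding RNA MUNC were called. They are the cadherin genes Cdh2, Cdh6 and Cdh9, the desmocollin gene Dsc3, the catenin gene Ctnna2 and the neural cell adhesion molecule gene Ncam2, out of 21523 protein-coding genes in the RefSeq annotation of GRCm38.p6. They were chosen by name, because earlier work on these peaks had placed them beside gene-poor peaks, so their nearness to a peak is a description and not a finding. A gene flanked a peak when it was the nearest protein-coding gene on the left or on the right of the peak midpoint. Of the 256 peaks, 5 (1.95%) were flanked by these genes, but only 1 of the 5, beside Ncam2, lay within the set limit of 1 Mb (1000000 bases). Thus 1 of the 6 genes had a peak within the limit, and over all protein-coding genes 2.39% flanked a peak within it or held one. The other 4 peaks lay farther than 1 Mb from every protein-coding gene on either side, and they are described with that distance stated.

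The peaks come from ChIRP-seq (chromatin isolation by RNA purification, with sequencing), in which biotinylated antisense probes retrieve an RNA and the DNA fixed to it from crosslinked cells. The cells were wild-type C2C12, a mouse myoblast line whose cells form myotubes in low serum, described in the labels as PAX7 NEG. They were grown in 20% fetal bovine serum and moved to 2% horse serum for differentiation, and the tissue label of every library is myotubes, although the source label says myoblasts. The groups were 2 libraries made with probes to MUNC, whose gene lies upstream of Myod1, and 2 made with probes to the bacterial gene lacZ as the negative control. The protocol names both a growing stage and a stage after 3 days of differentiation, and the design text assigns the libraries to differentiation. The deposited files held 1 table of peak positions and 1 table of 410 adjoining genes by symbol. They gave no score and no value for any library, so no value below has a replicate error, the lacZ background could not be set beside any peak, and the depth behind each peak is unknown.

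Cadherins are transmembrane proteins that hold cells together through calcium-dependent binding of their extracellular repeats, and catenins couple their cytoplasmic tails to the cytoskeleton. Immunoglobulin-type molecules such as the NCAM proteins mediate adhesion without calcium. In skeletal muscle, N-cadherin and M-cadherin are the cadherins best known from myoblast contact and fusion. Many adhesion genes, above all those with neural expression, stand beside wide gene-free stretches of mammalian chromosomes.

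Among the genes with a promoter entry, the starts of Cdh6, Cdh9 and Ncam2 all faced the peak next to them. Their promoters are printed because these starts lie at or near the edge of these stretches, and to show the longest run of letters that the Cdh6 and Cdh9 promoters share. The extent of Cdh6 reaches past its start to 13176407 and that of Cdh9 opens before its start, at 16728550. Both printed promoters therefore lie within the gene extents used here. Each line gives the 250 bases before the annotated start, from RefSeq, GRCm38.p6, 5′ to 3′ on the strand of the gene. Cdh6 is at chr15:13173676-13173925 on the minus strand, Cdh9 at chr15:16728665-16728914 on the plus strand and Ncam2 at chr16:81200447-81200696 on the plus strand. Capitals mark the longest run shared by Cdh6 and Cdh9, which the Ncam2 promoter does not hold.
Cdh6: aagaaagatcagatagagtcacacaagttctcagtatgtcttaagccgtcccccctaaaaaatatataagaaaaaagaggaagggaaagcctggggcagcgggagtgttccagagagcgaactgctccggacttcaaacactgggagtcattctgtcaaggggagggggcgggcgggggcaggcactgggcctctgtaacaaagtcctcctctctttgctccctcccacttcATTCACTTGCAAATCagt
Cdh9: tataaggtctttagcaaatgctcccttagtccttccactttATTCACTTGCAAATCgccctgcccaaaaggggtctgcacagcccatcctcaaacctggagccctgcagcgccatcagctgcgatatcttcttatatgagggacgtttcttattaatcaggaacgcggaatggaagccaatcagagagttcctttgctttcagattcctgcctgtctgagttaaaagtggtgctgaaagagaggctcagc
Ncam2: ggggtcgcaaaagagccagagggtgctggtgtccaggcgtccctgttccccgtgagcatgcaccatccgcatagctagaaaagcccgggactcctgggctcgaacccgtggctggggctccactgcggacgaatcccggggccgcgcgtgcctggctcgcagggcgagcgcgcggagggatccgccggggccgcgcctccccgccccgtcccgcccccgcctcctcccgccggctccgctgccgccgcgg
The shared run of 15 bases lay 4 to 18 bases before the start of Cdh6 and 195 to 209 bases before the start of Cdh9. Searched on both strands of the 250-base promoters of 17274 protein-coding genes, it was found in 2 genes (0.0116%), Cdh6 and Cdh9 themselves, for which it had been picked. A run of this length is rare in any promoter, so its absence from the others is a description and sets nothing apart. None of the other 8 type II cadherin genes with an entry (Cdh7, Cdh8, Cdh10, Cdh12, Cdh18, Cdh20, Cdh22 and Cdh24) held it, and their longest match to any part of it was 5 or 6 bases. The longest runs on the same strand between other pairs of the 4 member promoters in the table were 7 to 12 bases. The run contains CACTTG, an E-box, the motif CANNTG bound by MyoD and related factors (searched on both strands). It was the only E-box of the Cdh6 promoter and 1 of 3 in that of Cdh9, where another was of the form CAGCTG, and the Ncam2 promoter had none. The Ctnna2 promoter, not printed here, had 2, CACCTG and CAAGTG. An E-box of any form was present in a promoter of 66.4% of the 17274 protein-coding genes with an entry and CAGCTG in one of 13.9%, and these matches are given as letters in a window. The Ncam2 and Ctnna2 promoters were rich in G and C, at 75.2% and 73.2%, against a median of 55.6% over all promoters, whereas those of Cdh9 (48%) and Cdh6 (51.2%) were below that median. The table used has no entry for Cdh2 or Dsc3.

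Cdh2 encodes N-cadherin, the type I classical cadherin of muscle, nerve and mesenchymal cells, and Dsc3 encodes desmocollin 3, a cadherin of the desmosomes of stratified epithelia. The annotation placed Cdh2 on chromosome 18 from 16588877 to 16809246 and Dsc3 on the same chromosome from 19960930 to 20002410. No protein-coding gene lies in the 3.15 Mb between them. This interval held 2 of the 5 peaks, one from 18287658 to 18288025 (367 bases wide) and one from 18728857 to 18729091 (234 bases wide). The first lay 1.48 Mb from Cdh2 and 1.67 Mb from Dsc3, close to the middle of the interval, and the second lay 1.92 Mb from Cdh2 and 1.23 Mb from Dsc3. Their midpoints were 441 kb apart, and each was the nearest peak of the other. No peak lay to the left of Cdh2 on the chromosome, and the next peak to the right of Dsc3 was 1.93 Mb away. The interval contained 16 annotated non-coding genes, 7 of them lncRNAs and 7 pseudogenes. The nearest of these was a snoRNA 304 kb from the first peak and the lncRNA Gm31086 439 kb from the second, the largest such distances among the 5 peaks.

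Cdh6 and Cdh9 encode type II classical cadherins, known mainly from kidney and nervous system for Cdh6 and from neurons for Cdh9. Cdh6 lies on chromosome 15 from 13028699 to 13176407 on the minus strand and Cdh9 from 16728550 to 16857138 on the plus strand, so their starts face each other across a gene-free interval of 3.55 Mb. A peak of 326 bases, from 14321133 to 14321459, lay in it, 1.14 Mb from the end of Cdh6 and 2.41 Mb from Cdh9. Measured from the annotated starts, the peak was 1.15 Mb upstream of Cdh6 and 2.41 Mb upstream of Cdh9. The interval ranked 15 in size among the 19388 intervals between protein-coding genes. It contained 12 non-coding genes, and the one nearest the peak was the pseudogene Gm9630, 144 kb away. The same chromosome carries a row of type II cadherin genes beyond Cdh9, and the peaks were unevenly placed along it. The 1.96 Mb between Cdh9 and Cdh10 held no peak, Cdh10 was 1.95 Mb from the nearest one, Cdh12 held a peak of 149 bases inside it (20963907 to 20964056), and Cdh18 was 1.58 Mb from that peak. Cdh12 was on the deposited list of adjoining genes, and Cdh6, Cdh9, Cdh10 and Cdh18 were not.

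Ctnna2 encodes alpha-N-catenin, the neuronal alpha-catenin that links the cadherin and beta-catenin complex to actin. It covers 1098179 bases of chromosome 6, from 76881637 to 77979815, on the minus strand. The gene itself held no peak. A peak of 163 bases, from 74692285 to 74692448, lay 2.19 Mb from its nearer end, in a gene-free interval of 3.41 Mb that is closed on the other side by 4931417E11Rik at 1.22 Mb. Because Ctnna2 is read towards this interval, the peak lay on its downstream side, 3.29 Mb from the annotated start. This is the only one of the 4 genes with a known strand here whose peak was not upstream. The interval ranked 18 in size and contained 17 non-coding genes, of which an snRNA at 240 kb was the nearest to the peak. The next peak to the right of Ctnna2 was 20.7 Mb away.

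Ncam2 encodes a neural cell adhesion molecule best known from olfactory axons, and lies on chromosome 16 from 81200697 to 81624290 on the plus strand. Its peak, from 80250046 to 80250760, was the widest of the 5 at 714 bases and ranked 8 by width among all 256. It lay 950294 bases upstream of the gene's start and 1159306 bases from Tmprss15, the gene for the intestinal protease enteropeptidase. The interval between Tmprss15 and Ncam2 measured 2.11 Mb, the smallest of the 4, and held 7 non-coding genes, of which the lncRNA Gm41479 was 44.5 kb from the peak. On its other side Ncam2 borders a still larger interval of 3.09 Mb, up to Mrpl39, which held no peak. The next peak to the right of Ncam2 was 10.8 Mb away.

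**Figure D1:**
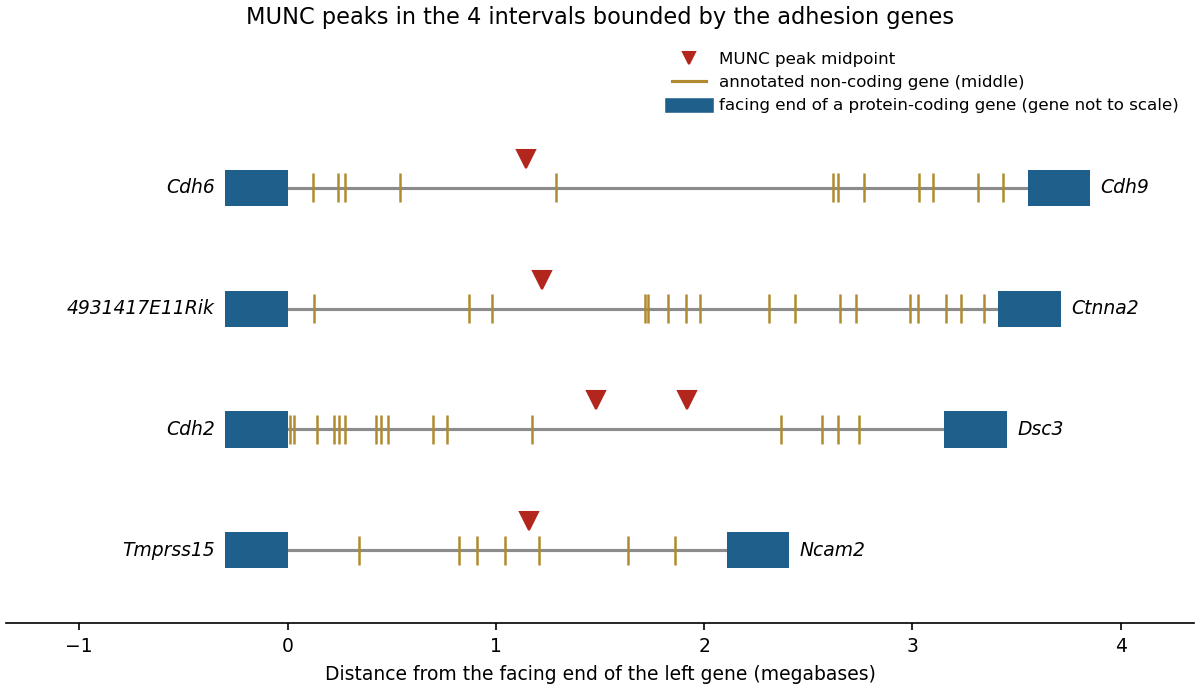
The 4 intervals bounded by the adhesion genes are drawn to scale along the horizontal axis, in megabases from the facing end of the left gene; triangles are MUNC peak midpoints and short ticks are the middles of annotated non-coding genes. The interval between Cdh2 and Dsc3 holds 2 peaks and each of the others holds 1, and in the 4 intervals only the peak left of Ncam2 is within 1 Mb of a protein-coding gene.

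The 5 peaks were of different widths. Their widths of 163, 234, 326, 367 and 714 bases ranked 195, 131, 63, 44 and 8 among the 256 peaks, whose median was 236 bases and whose range ran from 148 to 1469 bases. None overlapped an annotated gene of any type or a promoter in the table.

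The genes were chosen for peaks in gene-poor stretches, so the size of these intervals is set by that choice and is given as a description. Of the 256 peaks, 147 lay between protein-coding genes and 109 within one. The interval around those 147 had a median size of 757 kb, with quartiles of 238 kb and 1.58 Mb and a maximum of 4.51 Mb. The median over all 19388 intervals was 16.8 kb, but a wide interval is more likely to contain any given position. Ranked among the 147 peaks by interval size, the Cdh6 to Cdh9 peak was number 7, the Ctnna2 peak number 11, both Cdh2 to Dsc3 peaks number 13 and the Ncam2 peak number 28. The nearest protein-coding gene was 155 kb away for the median of the 147.

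**Figure D2:**
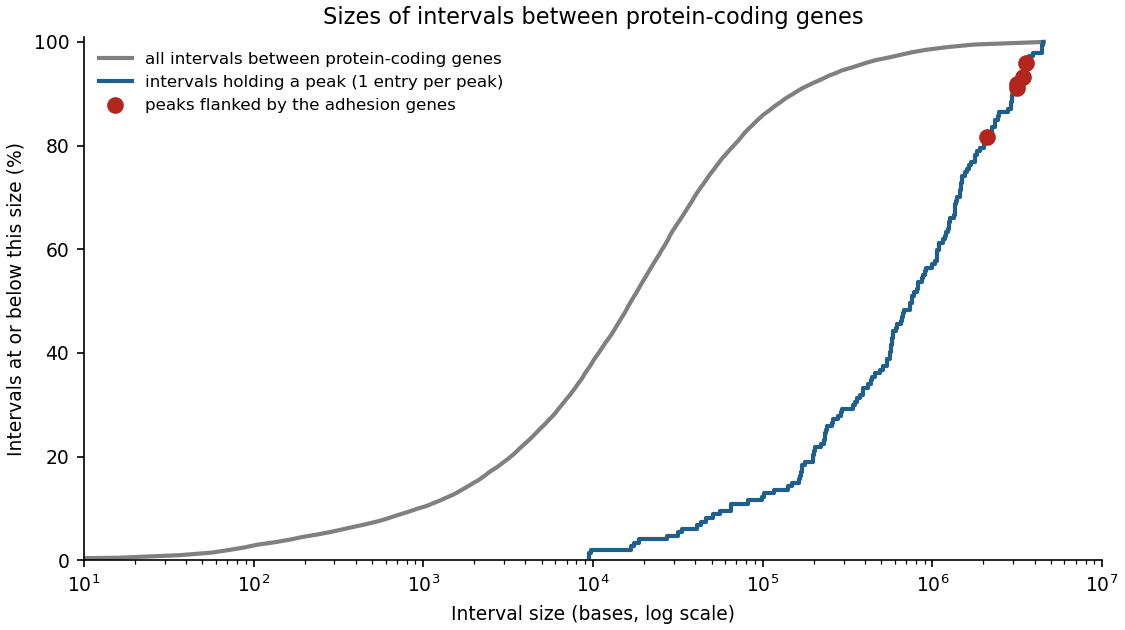
The horizontal axis is the size of the interval between protein-coding genes in bases (log scale), and the vertical axis the percentage of intervals at or below that size, for all 19388 intervals and for the intervals of the 147 peaks that lie between genes. The 5 peaks beside the adhesion genes (circles) sit at 2.11 to 3.55 Mb, in the upper part of the curve for peaks.

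Large intervals with adhesion genes at their ends were common in the annotation whether or not a peak was called there. In the genome, 76 intervals measured at least 2 Mb, and 26 of them (34.2%) held a peak, 4 of which held 2. A list of 103 adhesion genes, comprising cadherins, protocadherins outside the clusters, catenins, plakophilins and immunoglobulin-type molecules, bounded 177 of all 19388 intervals (0.913%) but 21 of these 76 (27.6%). A peak was present in 7 of the 21 (33.3%, 95% Wilson interval 17.2 to 54.6), against 19 of the 55 large intervals with none of these adhesion genes at either end (34.5%, 23.4 to 47.7). The 7 include the 4 intervals chosen for their peaks, so that share is partly set by the choice. Its Wilson interval does not cover this, no test was made, and no likeness is read from the shares. Without the 4 chosen intervals 3 of 17 are left, a number lowered by leaving out intervals that hold a peak and not compared with the 55. These 3 were the stretches from Olfm4 to Pcdh17 (4.42 Mb, with 2 peaks), from Cadm2 to Speer2 (2.24 Mb) and from Ctnna3 to Reep3 (2.01 Mb). Of the 17, 14 held no peak, among them the largest interval in the annotation, from Pcdh20 to Pcdh9 (4.54 Mb), both stretches around Pcdh7 (3.68 and 3.6 Mb) and both around Cdh8 (3.21 and 3.14 Mb).

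Per megabase, the 4 intervals carried 0.282 (Cdh6 to Cdh9), 0.293 (Ctnna2), 0.474 (Ncam2) and 0.635 (Cdh2 to Dsc3) peaks per Mb, which rests on 1 or 2 peaks each and was fixed above 0 by the choice of the genes. The 72 other intervals of at least 2 Mb carried 0.12 peaks per Mb, a rate lowered by leaving out intervals chosen for their peaks. All 76 together carried 0.136, and the genome outside the first 3 Mb of each chromosome 0.0996.

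Of the 6 genes, the deposited list of adjoining genes held 1, Ncam2 (16.7%, 95% Wilson interval 3.01 to 56.4, counting error only). Over all 21523 protein-coding genes the share was 1.85%, and over the 468 genes that flank a peak without holding one it was 59.6%. The list was made from these same peaks, by a rule that is not given in the sources used here, so presence on it is not independent of the peaks. Neither Tmprss15 nor 4931417E11Rik, the other genes at the ends of the 4 intervals, was listed, and no non-coding gene within the intervals was listed either.

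Ncam2, the listed gene, was also the one of the 6 nearest to a flanked peak. Cdh6 at 1.14 Mb, Dsc3 at 1.23 Mb, Cdh2 at 1.48 Mb, Ctnna2 at 2.19 Mb and Cdh9 at 2.41 Mb from their nearest flanked peak were not listed, whereas Ncam2 at 950 kb was. The same break ran through all flanking genes. Among those whose nearest flanked peak was within 1 Mb, 279 of 409 (68.2%, 95% Wilson interval 63.6 to 72.5) were listed, and among those beyond it 0 of 59 were (Wilson upper limit 6.11%; a limit of 3 counts allows a share of up to 5.08%). Without the 6 genes the counts were 278 of 408 (68.1%) and 0 of 54. Because the list was made from these peaks by a rule not given here, these shares describe the list, and the part of distance in it was not tested. By distance, the share was 66.7% of 153 genes up to 100 kb, 75% of 96 genes from there to 250 kb, 60% of 30 genes from 0.75 to 1 Mb, and 0 of 22 genes from 1 to 1.25 Mb. Just inside the limit, Ncam2 had as neighbours in distance Adcy8 at 934 kb, not listed, and Speer2 at 958 kb and Klhl1 at 969 kb, both listed. Just outside it were Zfp608 at 1.0 Mb and Agmo at 1.01 Mb, neither listed.

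**Figure D3:**
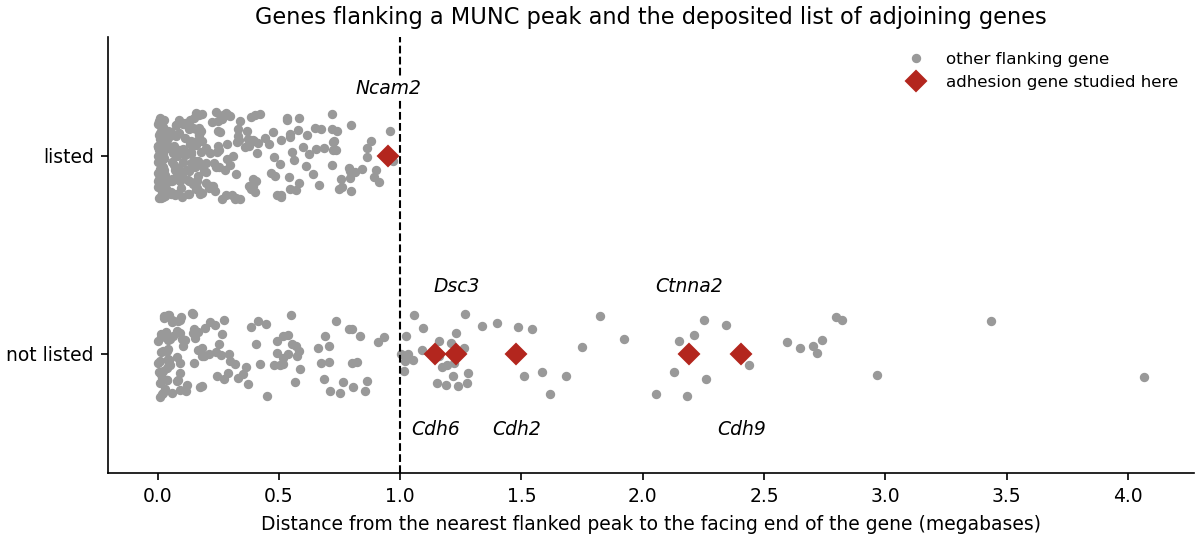
Each point is a protein-coding gene that flanks a MUNC peak without holding one; the horizontal axis is the distance from its nearest flanked peak in megabases, the 2 rows show whether the deposited list holds the gene, and vertical scatter within a row has no meaning. Points in the listed row stop at the dashed line at 1 Mb, with Ncam2 just inside it and the other 5 adhesion genes beyond it in the row of genes not listed.

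For the stretch between Cdh2 and Dsc3 and that between Cdh6 and Cdh9, this leaves peaks with no listed gene near them. Of the 147 peaks between protein-coding genes, 11 had none within 1 Mb on either side, and none of the 11 had a listed gene of any type within that distance. Since the genes were chosen beside such peaks, it is a matter of that choice that they bound 4 of the 11, namely both peaks between Cdh2 and Dsc3, the peak between Cdh6 and Cdh9 and the peak beside Ctnna2. Another was bounded by Pcdh17, which was listed and flanked a second peak at 248 kb. Of the other 136 peaks between genes, 128 had a listed flanking gene within 1 Mb.

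The remaining adhesion genes were examined in the same way, since the 6 had been picked out by name. Of the 103 genes on the list, 8 (7.77%, 95% Wilson interval 3.99 to 14.6) were on the deposited list, and 7 of the 97 others (7.22%) when the 6 were left out, against 1.85% of all protein-coding genes. The Wilson interval takes the genes as independent, although some, such as Chl1 and Cntn6, flank the same peak. A peak inside the gene, or one it flanked within 1 Mb, was found for 9 of the 103 (8.74%), against 2.39% of all protein-coding genes. Adhesion genes also have more space beside them. Their widest adjacent interval had a median of 139 kb, against 29.6 kb over all protein-coding genes, and their median length was 61069 bases against 17374 bases, and the part of either in these counts was not tested.

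By class, 5 of the 8 listed genes were of the immunoglobulin type, which is also the largest class, with 31 of the 103 genes. Besides Ncam2 these were Chl1 and Cntn6, which stand on either side of a peak of 148 bases, at 283 kb and 477 kb, Cntn4, which held a peak of 236 bases, and Icam2, 4832 bases from one. Chl1 encodes a close relative of the neural molecule L1, and the Cntn genes encode contactins, which are anchored in the membranes of neurons. Of 12 protocadherins 2 were listed, Pcdh17 at 248 kb and Pcdh18 at 460 kb. Of 13 type II cadherins only Cdh12 was listed, and of 5 type I cadherins, 9 desmosomal cadherins, 22 other cadherins and 11 catenins or plakophilins none was. Ctnna3, which encodes the alpha-T-catenin of heart and testis, was the only one of the 9 genes holding a peak, or flanking one within 1 Mb, that was not listed, with its peak 320 kb from the nearer end and its nearest annotated start 1.5 Mb from any peak. Another 6 adhesion genes not listed (Cdhr2, Pecam1, Cdhr1, Fat2, Ctnnd2 and Cdh20) had a peak 164 to 983 kb away, with another protein-coding gene nearer to it on that side. Promoter entries were present for 311 of the 409 flanking genes with a nearer end within 1 Mb of a peak. Among these 311, those whose annotated starts were all farther than 1 Mb from any peak were listed in 1 of 9 cases (11.1%), against 206 of 302 (68.2%) of those with a start within 1 Mb.

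The muscle cadherin gene Cdh15 and the NCAM gene Ncam1 are given for comparison; Cdh2 and Ncam2 were chosen for their peaks, so no order of nearness is read from them. Cdh15, which encodes M-cadherin, was 8.38 Mb from the nearest peak, and Cdh4, which encodes R-cadherin, 31.2 Mb. Ncam1, which encodes the NCAM of muscle and nerve, was 17.4 Mb from one. All 9 desmosomal cadherin genes lay 1.23 to 1.58 Mb from a peak. They form 1 cluster on chromosome 18 with Dsc3 at its edge, so these distances are not independent of one another. The median over the 97 adhesion genes other than the 6 was 3.6 Mb, against 4.5 Mb over all protein-coding genes, and these were not tested against each other.

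**Figure D4:**
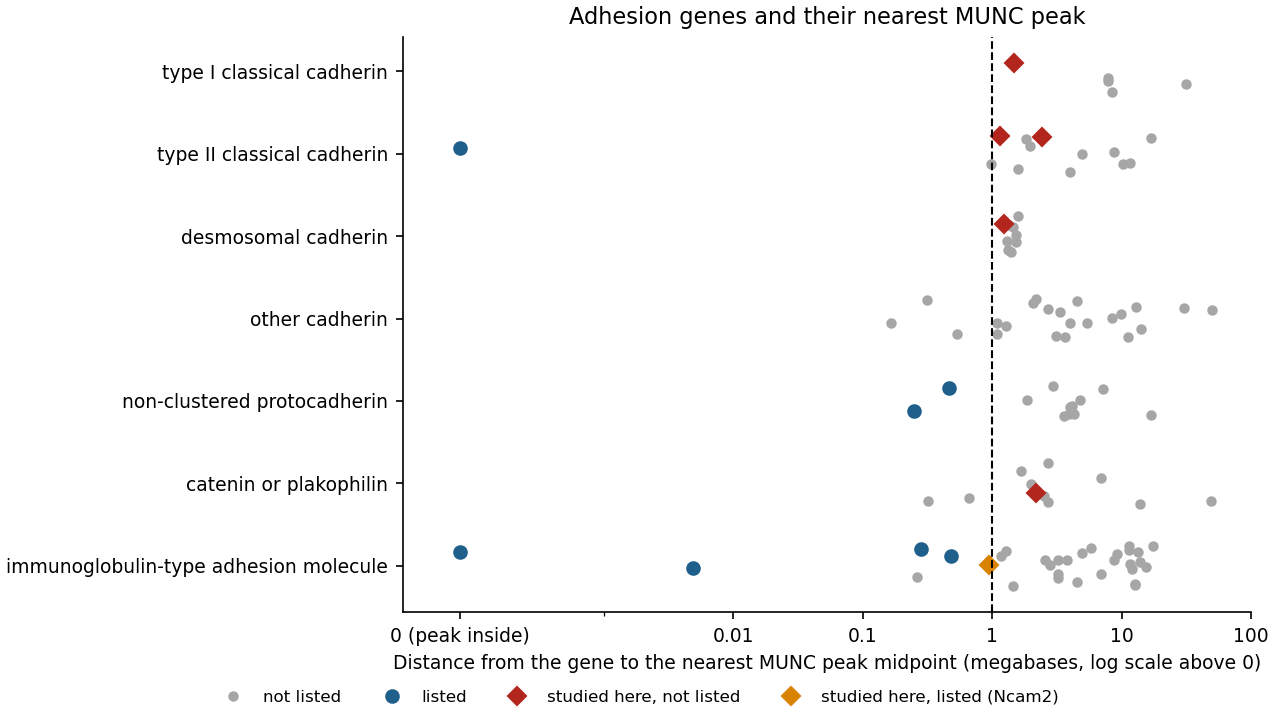
The horizontal axis is the distance in megabases from each of 103 adhesion genes to its nearest MUNC peak midpoint (0 for a peak inside the gene, log scale above), by class of gene; vertical scatter within a class has no meaning. All 8 listed genes lie left of the dashed line at 1 Mb together with 7 that are not listed, and the 5 genes studied here that are not listed lie between 1.14 and 2.41 Mb.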

How the data were processed

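ChIRP-seq libraries of C2C12 cells, 2 with MUNC probes and 2 with lacZ probes, were grouped by their titles. The authors deposited 1 list of peak positions and 1 list of gene symbols, with no other values per the file headers. Bowtie2 2.3.4.1, MACS2 2.1.1.20160309 and the build mm10 are named, without their settings, per the submitters' processing notes. The peak threshold, the use of the lacZ libraries, the pooling of replicates and the rule for adjoining genes are not given in the sources used here.

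Peak positions were used as deposited and combined with the RefSeq gene table of GRCm38.p6 (the assembly of mm10). Genes were limited to the autosomes and X and to entries that start after base 3000000, since mouse chromosomes open with a gap of that length. Entries with a start before it were taken to be on other sequences and left out (340 entries, 108 of them protein-coding). Whether peak starts count from 0 or 1 is not stated. Distances run from the peak midpoint to the nearer end of a gene, and gene extents include predicted transcripts. Intervals are the bases between neighbouring protein-coding genes. Of 410 listed symbols, 396 matched a current symbol, 12 an older one and 2 none. No statistical test was made, because the genes were chosen for these peaks; counts are set beside those over all genes or intervals, and Wilson intervals cover counting error only. The members and lists were chosen with earlier results of these data known. The genes named were the 6 members, the genes bounding or spanning their peaks, the adhesion genes that were listed or had a peak, and the genes nearest the 1 Mb limit; other names, among them the muscle cadherins, the peak-free intervals and the shared promoter run, were chosen with their values known. Neighbours were recovered for 200 of 200 simulated peaks. Python 3.11.15 and pandas 2.3.3 were used.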

Additional observations from a re-analysis of the deposited data

How the results depend on the processing

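Of 21 alternatives to 6 results, 12 left the value unchanged or, for a count, within 1.5 times. The count of peaks flanked by the 6 genes turned on the limit of distance: it was 1 within 1 Mb, 0 within 500000 bases, 4 within 2000000 bases and 5 with no limit, the last chosen after the data were examined. With genes of all types as neighbours it was 0, since a non-coding gene was then nearer on both sides. The median distance moved from 950294 bases to 1355275.75 within 2000000 bases and 1575842 with no limit, and the median interval from 2109599 bases to 3151683 in both. Adhesion genes flanking or holding a peak numbered 9 within 1 Mb and 15 within 2000000 bases. Merging close peaks, keeping peaks wider than the median and matching by current symbol only changed none of the values they were applied to. No paired analysis was possible because neither deposited table has values by library, and for the same reason no replicate was left out. The count of E-boxes within peaks was not run, since the sequences used here covered promoters and not the peaks. Medians under 500000 bases or with all gene types had no peak to rest on.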

Other observations

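Among the other peak-holding intervals, the largest, of 4.51 Mb, lies between Celf4 and Pik3c3 and held 1 peak. Efna5 and Efnb2, which encode ephrins, and Epha7, which encodes an ephrin receptor, bound intervals of 3.59, 3.51 and 3.0 Mb with 1 peak each, and Tenm2, which encodes a teneurin, bounds 1 of 3.44 Mb with 2 peaks. Tenm2 and Epha7 were on the deposited list, and Efna5 and Efnb2 were not. Stretches of at least 2 Mb beside Tenm3, beside Tenm4 and on the other side of Epha7 held no peak. The intervals beside Zeb2 (3.7 Mb) and Lrrc4c (3.93 Mb) held 1 peak each. These genes were picked out with their values known.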
